A study of Mus musculus with 13 samples.

Results

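This account covers 38 genes of the cell cycle among the 22598 genes measured, 13 that act in DNA replication (S phase) and 25 that act in the G2 phase and mitosis. They were chosen by name, as markers of dividing cells, with earlier results of these data known. All 38 were found in the files and passed the filter on low counts. Unique molecular identifiers (UMIs, counts of single captured transcripts) were summed per library in 22148 single cells sorted from mouse spinal cord in 13 libraries. All mice, controls included, carried the genotype Cx3cr1YFPCreERT2:R26tdTomato, in which a tamoxifen-inducible Cre expressed from the Cx3cr1 locus switches on tdTomato in cells that use Cx3cr1 when tamoxifen is given. Resident cells came from healthy controls (3 libraries, called a, b and c as names only), from mice at the peak of EAE (experimental autoimmune encephalomyelitis, in which T cells attack myelin; 2 libraries) and from chronic EAE (3 libraries). Infiltrating myeloid cells came from the peak (2 libraries) and from chronic EAE (3 libraries). The age and sex of the mice, the agent that induced EAE, the tamoxifen schedule, the gate that defined resident cells and the number of animals per library are not given in the sources used here. Where a library may pool or share animals, the p-values measure the spread between libraries only.

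Cells enter the cycle when D-type and E-type cyclins with their kinases release E2F transcription factors from the retinoblastoma proteins, which switches on the genes of DNA replication. Mitotic genes are switched on later, largely through the MuvB complex with B-MYB and FOXM1. Adult microglia are long-lived and divide rarely in the healthy spinal cord, and they are known to divide locally when the tissue is inflamed, whereas blood monocytes are made by dividing precursors in the bone marrow.

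Promoter sequences were matched for 32 of the 38 genes in the RefSeq start sites of GRCm38.p6. They are shown because S-phase and mitotic genes are usually read through different elements: E2F sites (searched as TTTGGCGC or TTTCCCGC), the cell cycle homology region (CHR, TTTGAA) and the CCAAT box. Each motif was searched on its own, on both strands, in the 250 bases before the start, and no match of one motif contains another. Capitals mark the matches, and a match on the other strand reads TTCAAA for the CHR and ATTGG for the CCAAT box. The first 4 are mitotic genes whose RNA was lower in chronic than in peak microglia. Kif23 and Birc5, the other mitotic genes called lower there, are not printed. Neither had a CHR match. Ccnb2 and Mcm6 were called higher in chronic microglia than in controls, but in both genes the groups overlapped. Chronic library c lay below all controls in Ccnb2 and below control a in Mcm6. Each line is 120 bases outside the annotated gene body, printed 5′ to 3′ on the strand of the gene.
Top2a (chr11:99024190-99024309, minus strand): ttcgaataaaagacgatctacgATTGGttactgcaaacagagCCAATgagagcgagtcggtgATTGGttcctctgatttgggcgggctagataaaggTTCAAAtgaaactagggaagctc
Mki67 (chr7:135716380-135716499, minus strand): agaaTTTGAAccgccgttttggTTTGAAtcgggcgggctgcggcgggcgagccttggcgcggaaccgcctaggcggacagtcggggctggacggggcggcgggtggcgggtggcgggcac
Hmgb2 (chr8:57511723-57511842, plus strand): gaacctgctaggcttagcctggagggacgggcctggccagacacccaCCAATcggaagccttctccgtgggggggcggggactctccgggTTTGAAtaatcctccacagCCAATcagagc
Kif11 (chr19:37376262-37376381, plus strand): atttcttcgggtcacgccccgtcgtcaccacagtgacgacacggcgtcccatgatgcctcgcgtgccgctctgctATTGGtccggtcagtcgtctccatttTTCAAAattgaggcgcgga
Ccnb2 (chr9:70421555-70421674, minus strand): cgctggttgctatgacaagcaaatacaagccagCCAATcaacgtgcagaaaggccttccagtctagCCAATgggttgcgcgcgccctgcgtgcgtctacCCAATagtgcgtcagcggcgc
Mcm6 (chr1:128359706-128359825, minus strand): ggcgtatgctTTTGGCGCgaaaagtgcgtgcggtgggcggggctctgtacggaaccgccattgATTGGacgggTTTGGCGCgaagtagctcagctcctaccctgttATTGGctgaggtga
The CHR letters were found for 9 of 21 mitotic genes and 1 of 11 S-phase genes with a promoter in the table, against 18.3% of 27025 genes. Either E2F sequence was found for 0 of 21 mitotic genes and for 4 of 11 S-phase genes (Hells, Mcm5, Mcm6 and Mcm7), against 1.51% of all genes. CCAAT stood in 19 of 21 and 9 of 11, against 37.5%. These are matches of letters and not measured binding.

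Resident groups were compared on annotated microglia and infiltrating groups on annotated monocytes and macrophages combined, in 1 fit over the 13 libraries. Library sums ran from 5415670 to 10330145 UMIs in control, 4196375 to 6332115 in peak and 6488280 to 17965689 in chronic microglia, and from 2262491 to 20256465 in the infiltrating cells. A control microglial cell held a median of 3017 to 4476 UMIs, a peak cell 8446.5 to 8521 and a chronic cell 2465.5 to 3544, depending on the library, so shares of cells with a UMI are given after every cell was thinned to 2000 UMIs and also without thinning. Sequencing used 4 pools, A to D. Among resident libraries, control a was in A, control c and chronic c in B, control b and both peak libraries in C, and chronic a and b in D, which had no control. The cell table assigns controls a and b to the peak stage and control c to the chronic stage, and within pool C control b and peak b also share a batch date. Among infiltrating libraries, peak a was in A, peak b in C, chronic a and b in D and chronic c in B. No pool held both disease stages, in resident or in infiltrating libraries. The 5 microglial markers reported (P2ry12, Tmem119, Sall1, Siglech and Sparc) summed to 8250 to 10031 CPM (UMIs scaled to a common library total) in control, 2198 to 2503 in peak and 1992 to 2911 in chronic microglia, and the 5 T cell markers found in the files (Cd3e, Cd3d, Cd3g, Cd4 and Cd8a) to at most 5.24 CPM. The list for macrophages of blood origin (Arg1, Ms4a7, Ccr2, Fn1) summed to 2.03 to 2.81, 64.8 to 74.1 and 153 to 346 CPM, and its part in the results was not tested. Of the cell barcodes, 52 occurred in more than 1 library.

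Cell cycle genes rose together in microglia at the peak of EAE. Of the 38 genes, 32 were higher than in controls and 0 were lower, 8 of 13 in S phase and 24 of 25 in mitosis, while 12.3% of all 11479 genes tested were called higher and 9.67% lower. The median log2 fold change was 1.62 for the S-phase genes, 2.68 for the mitotic genes and 0.00 over all genes. In 36 of 38 genes both peak libraries lay above all controls, as they did for 27.2% of all genes. Levels are CPM and are compared within a gene only, log2 fold changes are ± SE, and adjusted p come from the edgeR quasi-likelihood fit, corrected by the Benjamini-Hochberg method over all genes.

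Among the chromatin genes, Mki67, which coats mitotic chromosomes and is the standard marker of cycling cells (7:135689784-135716361, minus strand), stood at 3.15, 9.45 and 4.59 CPM in controls a to c, 48.2 and 37.0 at the peak and 8.33, 10.5 and 3.18 in chronic EAE. Both peak libraries were high and the chronic libraries overlapped the controls. The change at the peak was 2.91 ± 0.48 (adjusted p = 0.00091). Top2a, the topoisomerase that untangles replicated chromosomes (11:98992943-99024189, minus strand), was at 8.43, 14.8 and 8.07 CPM in controls, 67.7 and 61.5 at the peak and 23.2, 20.1 and 5.41 in chronic libraries. It rose by 2.64 ± 0.46 at the peak (adjusted p = 0.00134), and the 2 chronic libraries of pool D lay above the controls while the third lay below them. Hmgb2, a DNA-bending chromatin protein (8:57511907-57515999, plus strand), was at 57.1, 74.1 and 48.9, then 196 and 249, then 67.9, 58.0 and 51.2 CPM. Its rise of 1.89 ± 0.25 (adjusted p = 0.000206) had the smallest p of the mitotic genes at the peak.

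Of 9 cyclins and kinases, 8 rose at the peak. Cdk1, the kinase that drives entry into mitosis (10:69335146-69352938, minus strand), was at 5.06, 8.94 and 4.00 CPM in controls, 20.8 and 45.1 at the peak and 37.2, 29.6 and 9.61 in chronic microglia. All 3 chronic libraries and both peak libraries lay above all controls, and the peak change was 2.48 ± 0.52 (adjusted p = 0.0039). Ccnb2, a B-type cyclin partner of Cdk1, had the largest estimate of the 38 genes, 3.80 ± 0.81 (adjusted p = 0.00464). Plk1, a kinase of mitotic entry and exit, did not pass the test (2.19 ± 0.79, adjusted p = 0.0622).

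All 5 genes of the centromere and the chromosomal passenger complex rose. Cenpe, a kinesin at the kinetochore, was at 1.46, 1.66 and 1.18 CPM in controls, 17.9 and 18.4 at the peak and 13.3, 10.96 and 2.49 in chronic EAE, and rose by 3.67 ± 0.54 at the peak (adjusted p = 0.000428). Every diseased library was above every control. Cenpa, the histone variant that marks centromeres (5:30666777-30674830, plus strand), was at 6.75, 6.39 and 5.26, then 31.1 and 44.0, then 30.3, 23.1 and 8.01 CPM, and rose by 2.62 ± 0.47 (adjusted p = 0.00153). Birc5, or survivin, a passenger protein, rose by 3.56 ± 0.61.

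The 6 spindle genes and both genes of mitotic exit rose as well. Stmn1, a microtubule-destabilizing protein that other cell types also use outside mitosis (4:134468320-134473843, plus strand), was at 43.4, 46.6 and 54.4 CPM in controls, 102 and 183 at the peak and 119, 97.3 and 34.2 in chronic libraries. The peak change was 1.57 ± 0.44 (adjusted p = 0.0199), the smallest of the 25 mitotic genes. Ube2c, the ubiquitin-conjugating enzyme of the anaphase-promoting complex (2:164769898-164778822, plus strand), was at 5.62, 4.34 and 2.74, then 28.0 and 68.9, then 38.3, 24.6 and 3.29 CPM. It rose by 3.54 ± 0.84 at the peak (adjusted p = 0.00873). In chronic microglia the libraries of pool D lay above the controls and the library of pool B lay among them.

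Among S-phase genes, 5 of 7 at the fork and in nucleotide supply rose and 3 of 6 subunits of the replicative helicase rose, and the difference between these roles was not tested. Pcna, the sliding clamp of DNA polymerases (2:132249162-132253314, minus strand), was at 25.4, 33.9 and 30.1 CPM in controls, 73.3 and 78.9 at the peak and 59.9, 52.5 and 41.7 in chronic EAE, with every diseased library above every control. It rose by 1.35 ± 0.22 at the peak (adjusted p = 0.000924). Hells, a chromatin remodeller linked to DNA methylation, was at 5.28, 3.70 and 2.07, then 24.9 and 17.0, then 7.05, 4.15 and 3.77 CPM. Its rise was 2.52 ± 0.41 (adjusted p = 0.000844), and its chronic libraries overlapped the controls. Among helicase subunits, Mcm2, Mcm5 and Mcm6 rose by 1.99, 1.62 and 1.94. Mcm3 (1:20802968-20820312, minus strand) was at 37.7, 22.4 and 25.8 CPM in controls, 30.9 and 41.3 at the peak and 39.9, 38.2 and 30.6 in chronic libraries, so its groups overlapped. Its change at the peak was 0.34 ± 0.31 (adjusted p = 0.476), and that of Mcm7 was -0.04 ± 0.30. Mcm4, Tyms and Rrm2 did not pass the test either, with Rrm2, a subunit of ribonucleotide reductase, at 2.85 ± 0.98 (adjusted p = 0.051).

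**Figure D1:**
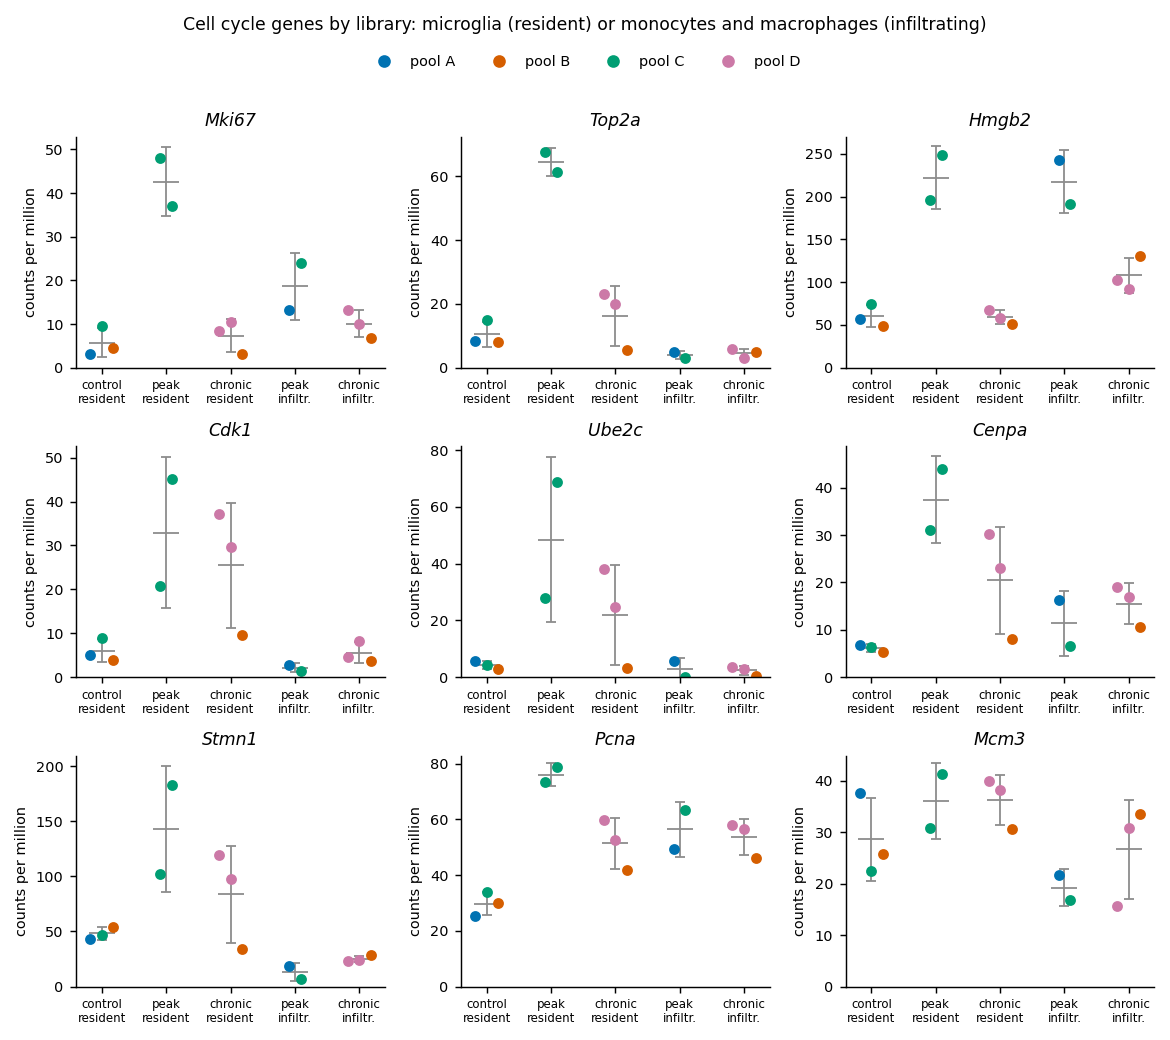
CPM (y axes, starting at 0) of 9 cell cycle genes in each library (points, coloured by sequencing pool) of the 5 groups, with group mean and SD (grey). In Mki67 and Top2a both peak resident libraries stand above all other libraries, and in Cdk1, Ube2c, Cenpa and Stmn1 the pool D chronic resident libraries are high while the pool B chronic resident library is lower.

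Within pool C, where both peak libraries and control b were sequenced together, 38 of 38 genes were higher in both peak libraries than in that control, against 37.2% of all genes. With the pool as a term of the fit, 34 genes were called higher (10 in S phase and 24 mitotic) and the 32 calls were all kept. Without peak resident b, 14 genes were called. Mcm7, Top2a and Stmn1 overlap exons of another gene on the same strand, and Mcm7, Ccna2, Plk1, Cdca8, Nusap1, Prc1, Cdc20 and Ube2c overlap exons on the other strand, so part of their UMIs could be a neighbour's.

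In chronic EAE, fewer cell cycle genes were above the controls. Of 38 genes, 10 were called higher and 0 lower, 5 in S phase (Mcm6, Pcna, Pclaf, Rrm2 and Gmnn) and 5 in mitosis (Cdk1, Ccnb2, Aurkb, Cenpa and Cenpe), beside 11.3% of all genes called higher and 6.46% lower. Median log2 fold changes were 0.67 for S-phase and 1.33 for mitotic genes. All chronic libraries lay above all controls in 5 of 38 genes and below them in 1, as in 22.2% and 21.9% of all genes. Cdk1 rose by 2.08 ± 0.48 (adjusted p = 0.00916) and Cenpe by 2.59 ± 0.52 (adjusted p = 0.0037). Gmnn, or geminin, the inhibitor of origin relicensing, was at 8.21, 7.67 and 7.998 CPM in controls and 26.3, 23.1 and 13.1 in chronic libraries, a rise of 1.37 ± 0.35 (adjusted p = 0.0156). Pcna rose by 0.78 ± 0.20 (adjusted p = 0.0179).

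The markers most used for division did not pass this test. Mki67 changed by 0.31 ± 0.46 (adjusted p = 0.659), Top2a by 0.61 ± 0.43 (adjusted p = 0.323) and Hmgb2 by -0.03 ± 0.23 (adjusted p = 0.958). Of spindle, exit and chromatin genes 0 were called, and Ube2c stood at 2.36 ± 0.79 (adjusted p = 0.0517).

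The 3 chronic libraries differed from each other along their pools. In the 2 libraries of pool D, 31 of 38 genes were above all 3 controls (8 of 13 in S phase, 23 of 25 in mitosis), as were 33.3% of all genes, and pool D held no control. Chronic resident c was above control c of its own pool in 22 of 38 genes, 10 of 13 in S phase and 12 of 25 in mitosis, as were 50.1% of all genes. Without chronic resident c the fit called 26 genes higher (6 in S phase and 20 mitotic). It called 1 without chronic resident a, 2 without chronic resident b or control c, 3 without control b and 6 without control a, which left 5 of the 10 calls. With the pool as a term 0 genes were called, 3 had an unadjusted p under 0.05 and the mitotic median was 0.06. In pool D, stage and pool cannot be told apart.

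Between the stages, 8 genes fell from peak to chronic microglia and 0 rose, beside 5.04% of all genes called lower and 4.75% higher. All 3 chromatin genes were among them: Mki67 fell by 2.60 ± 0.48 (adjusted p = 0.00864), Hmgb2 by 1.92 ± 0.25 (adjusted p = 0.0024) and Top2a by 2.03 ± 0.45 (adjusted p = 0.0209), on the log2 scale. The others were Hells (-2.09 ± 0.41, adjusted p = 0.0113), the spindle motors Kif11 (-2.27) and Kif23 (-2.25), Birc5 (-2.04) and Rrm1, the large subunit of ribonucleotide reductase (-0.94 ± 0.28, adjusted p = 0.0497). Rrm1 was at 15.6 and 18.4 CPM at the peak and 10.4, 8.30 and 8.12 in chronic libraries, and the 2 groups did not overlap. In 22 of 38 genes all chronic libraries lay below both peak libraries, as in 25.3% of all genes.

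Other members did not pass the test between stages. Cdk1 changed by -0.40 ± 0.50 (adjusted p = 0.615) and Rrm2 by 0.01 ± 0.91 (adjusted p = 0.997). The comparison rests on few libraries: leaving out either peak library left 1 call, leaving out chronic resident b left 2 and leaving out control a left 5. With the pool as a term 0 genes were called lower and 20 had an unadjusted p under 0.05, while the median log2 changes were -1.04 for S-phase and -2.45 for mitotic genes, against -0.57 and -1.34 without it, and 0 of 38 estimates were positive. No pool held both stages, and pool D held no control. That fit therefore links the stages through the controls of the other pools and through infiltrating libraries. It assumes the same pool shift in both kinds of cells, so its larger changes are no separate check of the fall. The comparisons with controls and the one between stages share libraries, so their values are set side by side and no overlap is read from them.

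**Figure D2:**
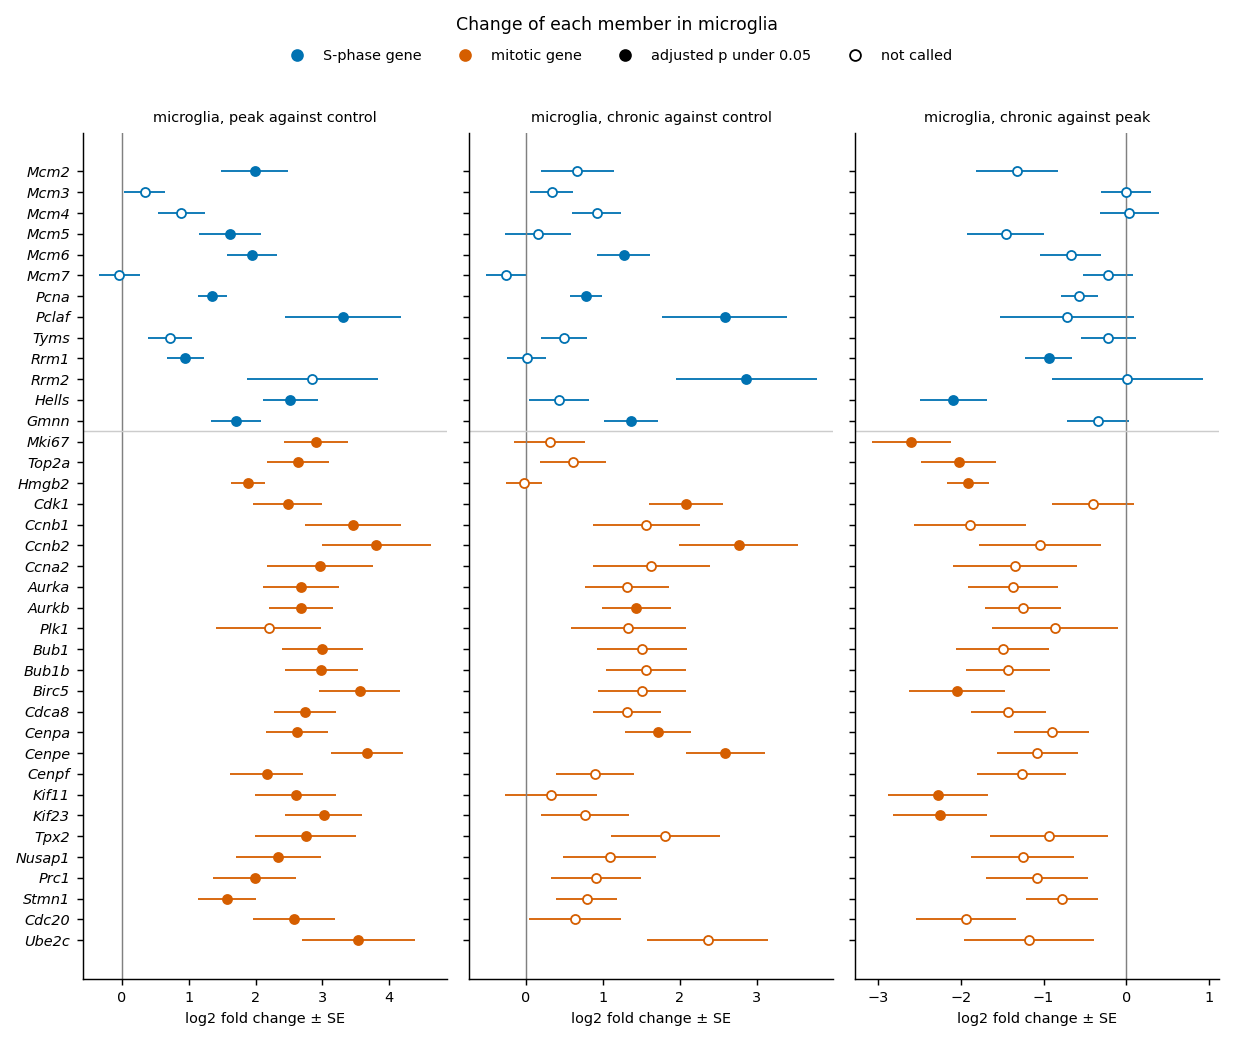
Log2 fold change ± SE (x axes) of each of the 38 genes in microglia, for peak against control, chronic against control and chronic against peak; filled points have an adjusted p under 0.05. In the left panel 32 points are filled, in the middle panel 10, and in the right panel 8, among them Mki67, Top2a and Hmgb2.

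A sum over a library cannot tell more dividing cells from more RNA per cell, so single microglia were counted. After thinning to 2000 UMIs, cells with an Mki67 UMI were 0.174%, 0.531% and 0.259% of control microglia, 5.91% and 3.43% at the peak and 0.880%, 1.75% and 0.315% in chronic EAE. Top2a gave 0.347%, 0.796% and 0.421%, then 8.02% and 7.15%, then 1.95%, 1.75% and 0.509%. For both genes the peak libraries were above all others, and chronic resident c lay within the control range. Mean shares were 0.321% ± 0.187 (SD, n = 3), 4.67% ± 1.75 (n = 2) and 0.983% ± 0.725 (n = 3) for Mki67. The exact two-sided permutation p was 0.2 in all 8 share comparisons (adjusted p = 0.2), and 0.2 is the smallest that 3 against 2 libraries allow (0.1 for 3 against 3). Thinning left out 19 to 149 control, 12 and 33 peak and 164 to 620 chronic cells. Without thinning, Mki67-positive cells were 0.283%, 0.783% and 0.309%, then 11.3% and 9.94%, then 1.68%, 1.91% and 0.466%.

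**Figure D3:**
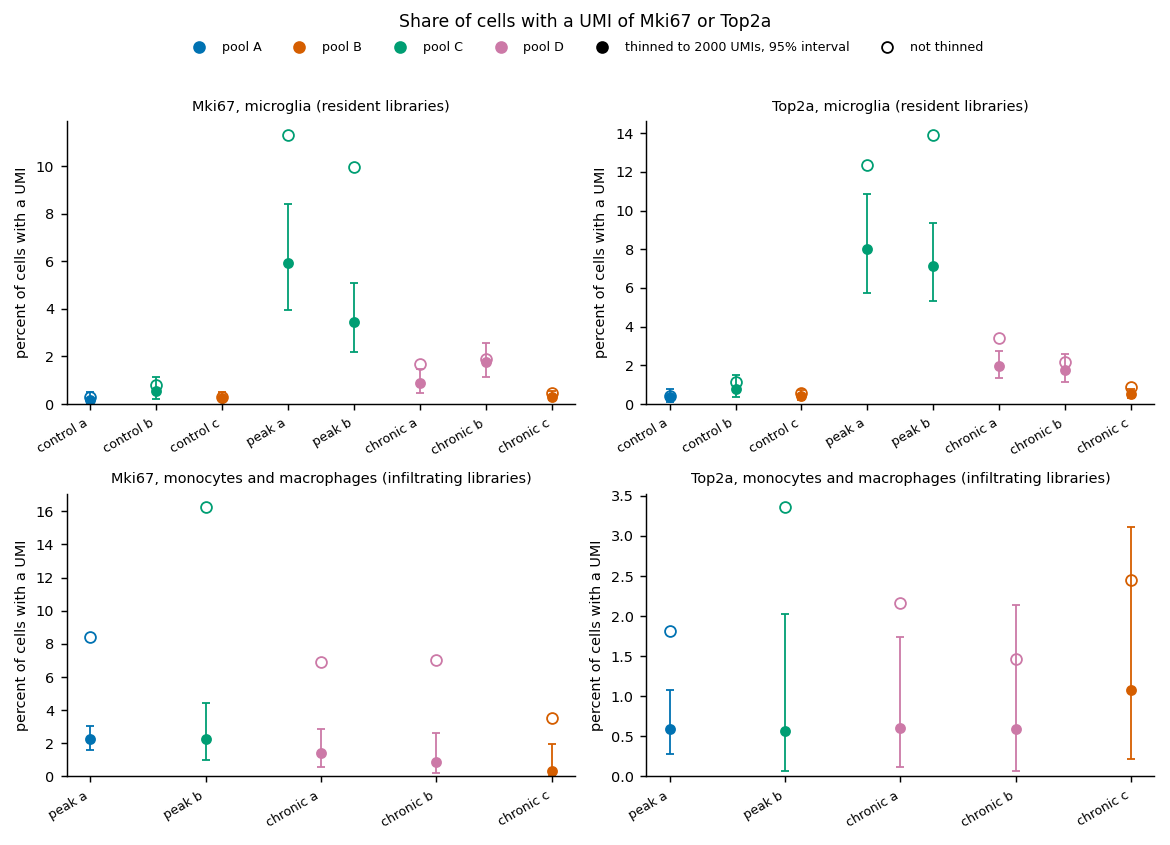
Percent of cells with a UMI of Mki67 or Top2a (y axes) in each library, for microglia of resident libraries (top) and monocytes and macrophages of infiltrating libraries (bottom); filled points are thinned to 2000 UMIs with exact binomial 95% intervals that cover counting error only, open points are not thinned. In the thinned points peak microglia stand highest for both genes. In infiltrating cells the open Mki67 points lie above the open Top2a points, far above at the peak and nearer in chronic EAE.

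A small share of microglia carried many mitotic genes at once. Cells with UMIs of at least 5 of 23 mitotic genes (all but Hmgb2 and Stmn1; a limit chosen after seeing the values, with no test) numbered 6, 8 and 10 in the controls, 47 and 77 at the peak and 79, 51 and 24 in chronic EAE. That is 0.339%, 0.696% and 0.309% of control microglia, 9.67% and 10.9% at the peak and 4.02%, 2.49% and 0.559% in chronic libraries. Thinned to 2000 UMIs, such cells were 0.231%, 0.531% and 0.259%, then 4.64% and 6.71%, then 2.45%, 2.24% and 0.339%. Over all microglia, 15347 cells had 0 of these genes, 1657 had 1 and 221 had 2, while 49 had 4 and 41 had 5. Of the UMIs of those 23 genes these cells held 74.8% to 82.7% in controls, 85.8% to 88.4% at the peak and 55.7% to 75.8% in chronic libraries. Of the UMIs of all 25 mitotic genes they held 44.9%, 53.0% and 38.3% in controls, 73.7% and 77.6% at the peak and 66.1%, 65.8% and 35.6% in chronic libraries. They held 6.89% to 14.5%, 41.2% to 45.7% and 11.9% to 32.2% of the S-phase UMIs.

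Within these cells all 25 mitotic genes stood at 16504, 15064 and 15609 summed CPM in controls, 5255 and 5927 at the peak and 5657, 5995 and 5165 in chronic EAE. The 3 control values lay above all others, and peak and chronic values overlapped. The control values rest on 6, 8 and 10 cells. All these cells were picked, without thinning, by most of the same genes, so their level is a description only. Their median UMIs per cell were 4890.5 to 7979 in controls, 10071 to 11318 at the peak and 3361 to 5192 in chronic libraries, and the part of depth was not tested. S-phase UMIs per mitotic UMI were 0.147 to 0.169 in controls, 0.196 and 0.266 at the peak and 0.265 to 0.364 in chronic libraries. T cell markers stood at 0 to 1.17 CPM in them and the 5 microglial markers at 1306 to 6635 CPM. Among the remaining microglia, S-phase sums were 159 to 191 CPM in controls, 223 and 257 at the peak and 146 to 213 in chronic libraries.

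Which mitotic genes carried the signal also varied. Mki67 made up 4.73%, 9.46% and 8.18% of the UMIs of the 23 mitotic genes in control microglia, 11.1% and 6.15% at the peak and 2.64%, 4.28% and 5.40% in chronic EAE, so its groups overlapped. Cdk1 made up 7.60%, 8.95% and 7.12%, then 4.80% and 7.49%, then 11.8%, 12.1% and 16.3%, with all 3 chronic libraries highest. A positive cell held 5.60, 8.22 and 6.20 Mki67 UMIs on average in controls, 4.25 and 3.33 at the peak and 1.58, 1.62 and 3.00 in chronic libraries. Of Mki67-positive microglia, 100%, 88.9% and 100% also had a Top2a UMI in controls, 61.8% and 65.7% at the peak and 54.5%, 48.7% and 70.0% in chronic EAE. UMIs per positive cell and this overlap were not thinned. In controls they rest on the 0.283% to 0.783% of microglia that were Mki67-positive, so on few cells.

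**Figure D4:**
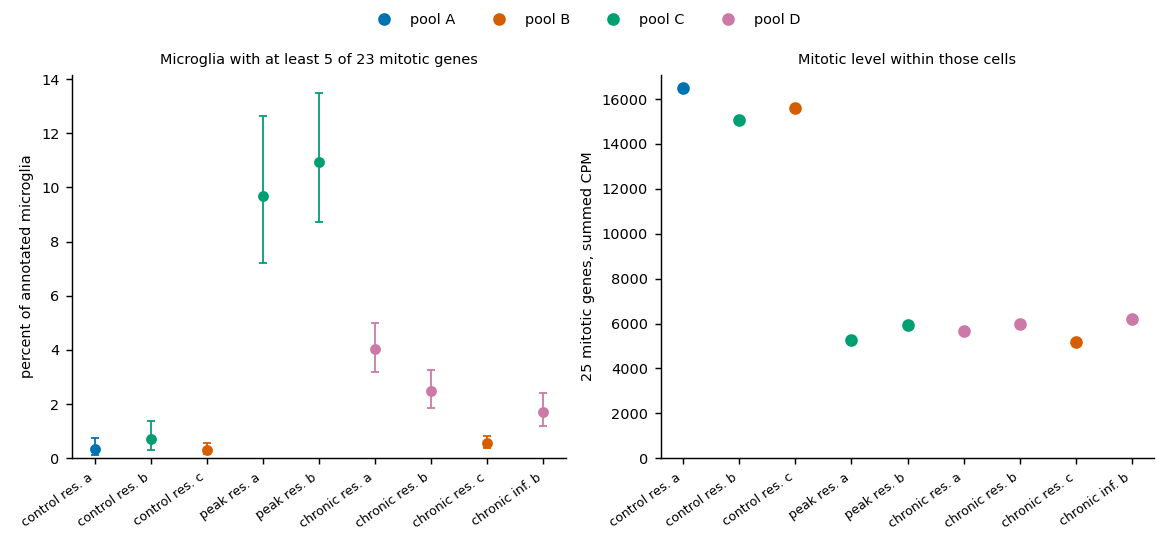
Left, percent of annotated microglia with at least 5 of 23 mitotic genes (exact binomial 95% intervals, counting error only); right, summed CPM of 25 mitotic genes within those cells; points are libraries coloured by pool. The share is highest in both peak libraries (9.67% and 10.9%), while the level within the cells is highest in the 3 controls (6, 8 and 10 cells). The cells were picked by 23 of the same genes.

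In the deposited clusters, cluster 2 (258 cells) held 222 of the 335 such microglia, or 66.3%, and the others lay in clusters 4 (60), 3 (50), 9 (2) and 1 (1). Mki67 was detected in 57.4% of cluster 2 cells and Top2a in 73.3%, and the cluster held 31.5% of the UMIs of the 25 mitotic genes (45.9% of the 23) and 12.6% of the S-phase UMIs over all cells. The clusters were made from the same cells and genes, so this is a description.

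Infiltrating monocytes and macrophages showed a different mix of cell cycle genes. At the peak, 0 of 38 genes were higher than in microglia and 31 were lower, 9 in S phase and 22 in mitosis, beside 13.9% of all genes called higher and 16% lower. Top2a was at 4.80 and 3.00 CPM in infiltrating against 67.7 and 61.5 in resident libraries, a log2 difference of -3.97 ± 0.58 (adjusted p = 0.000196), and no library overlapped. Cenpf, a kinetochore protein, differed by -5.14 ± 0.79 (adjusted p = 0.0003). Hells and the thymidylate synthase gene Tyms differed by -2.87 ± 0.49 (adjusted p = 0.000692) and -1.91 ± 0.39 (adjusted p = 0.00249). Mki67, Hmgb2, Bub1b, Pcna, Gmnn, Mcm3 and Mcm4 were not called. Mki67 was at 13.3 and 24.0 CPM, and Hmgb2 at 243 and 192 against 196 and 249 in microglia. Without peak resident b, 19 genes were called lower.

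In chronic EAE, 9 genes were lower in infiltrating cells than in microglia (Tyms, Top2a, Cdk1, Ccnb2, Birc5, Cenpe, Cenpf, Stmn1 and Ube2c) and Hmgb2 was higher, beside 13.7% and 12.4% of all genes. All infiltrating libraries lay below all microglial ones in 6 of 38 genes and above them in 1, as in 22.5% and 19.1% of all genes. Hmgb2 was at 102, 91.6 and 131 CPM against 67.9, 58.0 and 51.2, a difference of 0.88 ± 0.23 (adjusted p = 0.0132) with no overlap. Stmn1 differed by -1.74 ± 0.42 (adjusted p = 0.00783), Cdk1 by -2.16 ± 0.54 (adjusted p = 0.00863) and Tyms by -0.96 ± 0.33 (adjusted p = 0.0444). These calls moved with single libraries. Without chronic resident c there were 20 lower and 0 higher, and without chronic resident a or b 3 and 4 lower. Without chronic infiltrating b or c there were 3 and 5 lower.

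From peak to chronic infiltrating cells 0 genes were called in either direction, beside 0.566% of all genes called higher and 0.227% lower. No pool held infiltrating libraries of both stages, so this comparison is also one between pools. By edgeR 2 had an unadjusted p under 0.05 (Mcm6 and Hmgb2), and DESeq2 called 1 lower. Hmgb2 changed by -1.01 ± 0.25 (adjusted p = 0.0813). The difference between this change and the microglial one was tested in the same fit, as a comparison added after seeing the data. For all 38 genes the estimate was positive, 11 had an unadjusted p under 0.05 and 0 were called, where 0% of all genes were called higher and 0.0436% lower. The stage changes of the 2 kinds of cells are thus not shown to differ for any single member.

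At the peak, macrophages of the infiltrating libraries carried Mki67 with little Top2a. Without thinning, Mki67 UMIs were found in 12.97% and 24.4% of annotated macrophages at the peak and in 8.29%, 8.30% and 4.52% in chronic EAE. Top2a UMIs were found in 2.19% and 4.44%, then 2.29%, 1.89% and 3.02%. Mki67 alone made up 27.9% and 54.7% of the 23 genes' UMIs at the peak, against at most 11.1% in microglia. At the peak 0 macrophages had 5 or more of the mitotic genes. In peak infiltrating a, macrophages held 114 Mki67 and 18 Top2a UMIs while T cells of the same library held 116 and 196. Thinned to 2000 UMIs, monocytes and macrophages together gave Mki67 in 2.25% ± 0.0219 (SD, n = 2) at the peak and 0.884% ± 0.519 (n = 3) in chronic EAE, and Top2a in 0.577% ± 0.0153 and 0.757% ± 0.276. Macrophages alone, thinned in the same way, gave Mki67 in 3.39% to 3.98% at the peak and 0.513% to 2.03% in chronic EAE. Top2a gave 0.565% to 0.737% and 0.290% to 1.54%, so the ranges of the genes overlapped in chronic EAE.

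Pooled over all libraries, which differ in stage and depth, Top2a was found in 13.2% of T cells and Mki67 in 9.58%. Dendritic cells had 5.92% and 4.23%. Microglia had 2.14% and 1.51% at a median of 3326.5 UMIs per cell, macrophages 2.75% and 11.2% at 10730, and monocytes 1.65% and 5.22% at 10497. Neutrophils had been planned as a background of cells that do not divide. Only 14 were annotated, and 2 of them had an Mki67 UMI and 3 a Top2a UMI (14.3% and 21.4%), the highest shares of any class. They thus give no background, and the lowest shares were those of microglia for Mki67 and of monocytes for Top2a. Peak microglia, at median depths of 8446.5 and 8521 UMIs and without thinning, had Mki67 in 11.3% and 9.94%. These shares were close to the pooled macrophage share but below the 12.97% and 24.4% of peak infiltrating macrophages. Thinned to 2000 UMIs, mean Mki67 shares were 4.67% in peak microglia and 3.69% in peak infiltrating macrophages, and the libraries overlapped. Top2a, without thinning, was found in 12.3% and 13.9% of peak microglia, above the shares of monocytes and macrophages. In the 2 peak infiltrating libraries T cells (141 and 47 cells) were Mki67-positive in 17.0% and 25.5% and Top2a-positive in 23.4% and 27.7%. In the 4 chronic libraries with at least 50 T cells, Top2a was found in 3.12% to 9.62% of them without thinning, below both peak microglial libraries. At 2000 UMIs per cell, T cells of the 2 chronic resident libraries gave 4.35% to 7.94% and peak microglia 7.15% to 8.02%, which overlap.

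**Figure D5:**
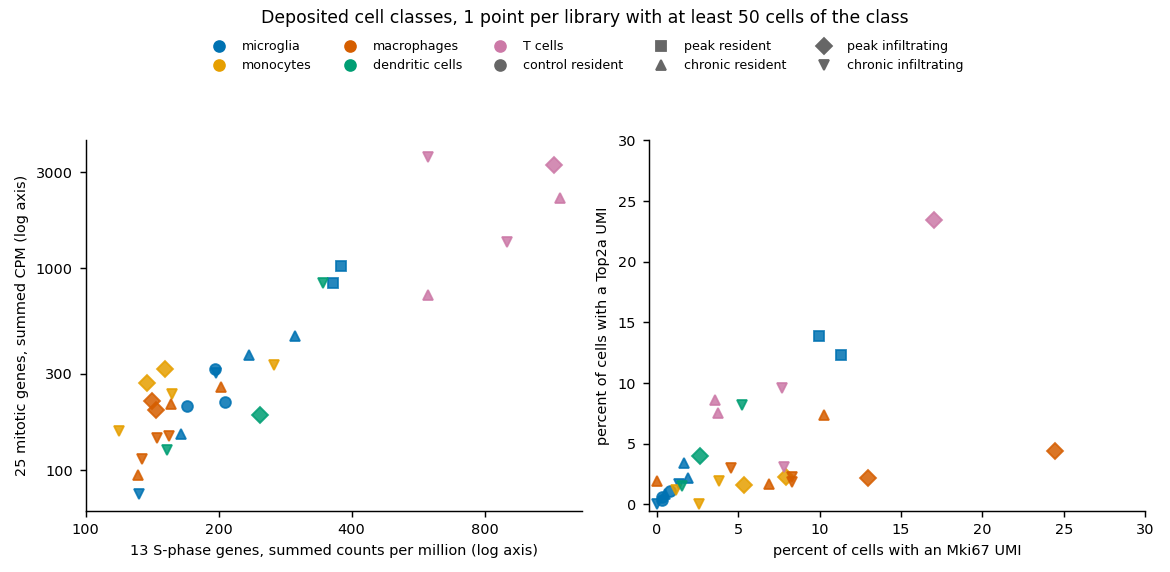
Left, summed CPM of 13 S-phase genes (x, log axis) and 25 mitotic genes (y, log axis); right, percent of cells with an Mki67 UMI (x) and a Top2a UMI (y), not thinned. Each point is a class in a library with at least 50 cells (colour, class; shape, group). Peak microglia reach mitotic levels within the range of the T cells, and peak macrophages lie to the right with few Top2a-positive cells.

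The genes upstream of the cycle, in 7 lists chosen with earlier results of these data known, moved in part, and their counts stand beside 12.3% of all genes called higher at the peak and 11.3% in chronic EAE. Of 8 G1 cyclins and kinases, 3 rose at the peak (Ccnd2, Ccne1 and Ccne2) and 2 in chronic EAE (Ccnd2 and Cdk4), and 0 fell. Ccnd2, cyclin D2, went from 0.840 ± 0.150 CPM in controls (SD, n = 3) to 8.01 ± 2.35 at the peak (n = 2) and 3.23 ± 0.908 in chronic EAE (n = 3), rises of 3.23 ± 0.55 and 1.88 ± 0.54. Of 7 kinase inhibitors, 1 rose and 1 fell at the peak. Cdkn1c, or p57, fell from 16.7 ± 3.17 to 0.991 ± 0.0538 CPM, a log2 fold change of -4.06 ± 0.53 (adjusted p = 0.000171), and stood at 3.57 ± 2.24 CPM in chronic microglia. Cdkn2a, which encodes p16 and p19 from shared exons that the counts do not separate, went from 2.04 ± 0.906 to 17.7 ± 4.01 and 29.9 ± 8.91 CPM. Its rises were 3.14 ± 0.61 (adjusted p = 0.00264) and 3.88 ± 0.57 (adjusted p = 0.000477), and in chronic EAE Cdkn2b rose too.

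Of 14 tested Rb, E2F and related factors, 5 rose at the peak (E2f1, E2f2, E2f8, Foxm1 and Mybl2) and 0 fell, and 5 fell from peak to chronic (E2f2, E2f8, Foxm1, Mybl2 and Rbl1). Foxm1, an activator of mitotic genes, was at 0.951 ± 0.619, 6.25 ± 1.65 and 1.03 ± 0.496 CPM in control, peak and chronic microglia. E2f1, an activator of replication genes, was at 3.26 ± 1.18, 18.2 ± 2.18 and 13.3 ± 7.31 CPM and was the 1 factor higher in chronic EAE than in controls (2.01 ± 0.46, adjusted p = 0.00882), while E2f3 was lower (-0.79 ± 0.19). Of 10 genes of origin licensing and firing, 5 rose at the peak and 1 (Gins2) in chronic EAE. Of 10 polymerase and fork genes 7 rose at the peak, among them Pole, the leading-strand polymerase (2.74 ± 0.52), and Uhrf1, which maintains DNA methylation (3.65 ± 0.69), and both fell again from peak to chronic. In these 2 lists 0 genes fell at the peak.

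Of 5 tested genes of colony-stimulating factor signalling, 4 rose and 1 fell at the peak. Csf1r, the receptor on which microglial survival and division depend, was at 2321 ± 504 CPM in controls, 1251 ± 18.6 at the peak and 1341 ± 9.93 in chronic EAE, lower at both stages (-0.89 ± 0.29, adjusted p = 0.0411, and -0.79 ± 0.25, adjusted p = 0.0455). Csf1, a ligand of that receptor, was at 13.9 ± 7.33, 69.3 ± 35.1 and 142 ± 70.4 CPM and rose at both stages. Csf2ra, a receptor chain for GM-CSF, rose by 1.39 ± 0.30 and 1.60 ± 0.28. Csf2rb and its close copy Csf2rb2, whose UMIs may be split between them, rose at the peak and fell again. Of 7 genes of quiescence and growth arrest 0 were called at the peak, and Btg2 and Foxo3 were lower in chronic EAE.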

How the data were processed

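Cells were sorted from mouse spinal cord and sequenced as 13 libraries; the submitters' processing notes name Cell Ranger 3.1.0, R 4.1.3 and the builds GRCm38 and mm10. The authors deposited UMI counts per gene and cell with no normalization, and a table of cells with library, pool, class and cluster, the log10 of each cell's UMI total and its mitochondrial percent, which ends at 5 in the deposited table; 0 cells were marked as doublets. Value columns of no matched sample numbered 0.

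Counts were summed per library over annotated microglia, or over monocytes and macrophages, and tested with edgeR 4.0.16 (R 4.3.3): filterByExpr by group (11479 genes), TMM, quasi-likelihood F test of 5 group means, 8 residual degrees of freedom, two-sided, Benjamini-Hochberg adjustment, called under an adjusted p of 0.05. The biological coefficient of variation was 26.0%. CPM of single genes are TMM-scaled, and sums are scaled by library size alone. On simulated data with 200 changed genes, 14%, 84%, 90% and 92% of the 50 genes each changed 2-, 4-, 8- and 16-fold in peak against control were recovered among 11134 genes, with 5 false calls. Shares used cells thinned to 2000 UMIs and exact permutation tests. Intervals are exact binomial (Clopper-Pearson) and cover counting error only.

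One microglial marker is not reported here. The members and lists were chosen with earlier results of these data known. Named with all values were Mki67, Top2a, the most abundant member of each role and the called members with the smallest p. From the other lists, up to 4 called genes with the smallest p were named, and those that make up a small count were added after their values were seen. Alternatives were DESeq2 1.42.0, library size alone, no filter, the pool as a term, all cells, monocytes or macrophages alone and leaving out each library. Genes are placed on GRCm38 by the GENCODE M21 annotation. The dense text copy of the matrix was left out as a duplicate.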

Additional observations from a re-analysis of the deposited data

Results flagged for a closer look

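Chronic infiltrating library b held 1915 cells annotated as microglia, which no comparison used because the library was sorted as infiltrating. Of these cells 1.72% had at least 5 of the 23 mitotic genes (33 cells), 1.36% had an Mki67 UMI and 1.67% a Top2a UMI. Each share was above the highest of the 3 control libraries, which was 0.696%, 0.783% and 1.13%. The library was sequenced in pool D with chronic resident a and b, where the first share was 4.02% and 2.49%, and pool D held no control. Mitotic genes stood at 6207 summed CPM within the 33 cells. The difference was not tested.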

How the results depend on the processing

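No paired analysis was possible because the cell table names the group of a library but not the replicate number of its label; the sequencing pool could be used as a term, and batch dates follow the pools except that pool C has 2. Microglial genes called higher at the peak numbered 14 to 34 with a library left out and 29 by library size alone. For chronic against control (10 higher, 0 lower) the counts were 5 higher and 1 lower by library size alone, 16 with no filter and 0 with the pool as a term, and 1 to 26 with a library left out. For chronic against peak (8 lower) they were 0 with the pool as a term, where the mitotic median went from -1.34 to -2.45, 2 with all cells and 1 to 9 with a library left out. For infiltrating cells, chronic against peak, DESeq2 and the fit with no filter each called 1 lower. Peak infiltrating cells against microglia (31 lower) gave 2 with all cells and 19 to 32 with a library left out. In chronic EAE (1 higher, 9 lower) the higher count was 0 by library size alone, with all cells and with macrophages alone, and 0 to 1 with a library left out. The lower count was 15 by library size alone, by DESeq2 and with macrophages alone, 17 with no filter, 19 with the pool as a term, 0 with all cells, 3 with monocytes alone and 3 to 20 with a library left out. All-cell sums of chronic infiltrating b are mostly microglia.

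Library size alone moved the median log2 fold change of all genes to -0.32, -0.49, -0.12, -0.11, -0.36 and -0.33 in these 6 comparisons, and the share of higher among called genes from 56.0%, 63.5%, 48.5%, 71.4%, 46.6% and 47.6% to 29.9%, 18.1%, 39.1%, 69.7%, 29.8% and 29.2%. With the pool as a term that share was 78.5% for chronic against control.

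The Top2a share of infiltrating cells, chronic minus peak (0.180), was -0.0926 at 4000 UMIs and -0.558 without thinning. Against control, Mki67 in chronic microglia was -0.21 by library size alone, -0.35 with the pool as a term and -0.054 without chronic resident b; Top2a was -0.28 and Stmn1 -0.085 with the pool as a term; Hmgb2 was 0.32 with the pool as a term, 0.12 with all cells, 0.13 without control b and 0.060 without chronic resident c. Mcm3 was -3.3e-05 at the peak and -0.14 in chronic EAE by library size alone. From peak to chronic, Mcm3 was 0.014 by DESeq2, 0.029 with no filter, 0.061 with all cells and 0.00018 to 0.23 in 8 fits that left out a library. Cdk1 was 0.27 without peak resident b and 0.017 without chronic resident c. The cause was not tested. Depth limits the least abundant genes most, with Bub1 at 150 UMIs in all.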
